A study of Homo sapiens with 4 samples.

Results

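Interferon-stimulated genes and RNA sensors were described in LM2 cells after knockdown of hnRNPM, set against control LM2 cells. The 43 genes were taken by symbol from a list. It holds IFIT genes, sensors of viral RNA with their adaptor and antiviral enzymes, and transcription factors of the interferon response. It also holds the ISG15 conjugation system with related ligases, membrane proteins that restrict viruses, and other effectors. These genes were chosen with earlier results of these data known. The deposited table held 42 of them among 36525 genes, and MAVS, the adaptor of the cytosolic RNA helicases, was not analysed here. LM2 is a clonal derivative of the human breast cancer line MDA-MB-231, recovered from lung metastases, and hnRNPM binds RNA and takes part in the choice of exons during splicing. RNA was sequenced from 2 hnRNPM knockdown libraries and 2 control libraries of cells grown for 48 h after plating. The labels call the silencing agent an siRNA in some fields and an shRNA in others. They do not state whether the libraries within a group are separate cultures, so p-values measure only the spread between these libraries, which may be technical.

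Cells sense foreign RNA through cytosolic helicases such as MDA5 (gene IFIH1) and through endosomal TLR3, and these signals lead to the secretion of type I and type III interferons. Interferon bound to its receptor activates the kinases JAK1 and TYK2, which phosphorylate STAT2. STAT2 and IRF9 are subunits of the factor ISGF3, which binds the interferon-stimulated response element (ISRE) in promoters of antiviral genes. Interferon gamma acts on another element, the gamma-activated site (GAS). Some ISRE-containing genes, IFIT genes among them, can also be switched on by IRF factors without interferon.

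The core of the ISRE consists of GAAA, any 2 bases and a further GAAA, and on the opposite strand it reads TTTC, 2 bases, TTTC. It was searched on both strands in RefSeq promoter windows of build GRCh38.p14, from 250 bases before the transcription start to 50 bases from it, and overlapping matches were counted separately. A window was matched for 35 of the 42 genes. The core lay in 21 of these 35 windows (60.0%), against 996 of all 27305 windows (3.65%) and 220 of the 8019 windows of genes tested for expression (2.74%). With 1 mismatch allowed the shares were 80.0% for the listed genes and 33.4% for all windows. The following stretches run from 160 bases before the start to 10 bases from it, 5′ to 3′ on the strand of the gene, with the matches in capitals. They show the 4 windowed genes with the largest rises after knockdown among those with a match, and 2 genes that carry the same core and did not pass the test. The IFIT1 stretch is chr10:89392463-89392632 (+), SAMD9 chr7:93117970-93118139 (−), IFIT3 chr10:89327837-89328006 (+), IFIH1 chr2:162318675-162318844 (−), BST2 chr19:17405621-17405790 (−) and DTX3L chr3:122564178-122564347 (+).
IFIT1: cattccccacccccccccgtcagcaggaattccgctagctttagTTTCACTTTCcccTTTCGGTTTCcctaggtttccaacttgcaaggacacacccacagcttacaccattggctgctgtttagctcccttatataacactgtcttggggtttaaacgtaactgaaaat
SAMD9: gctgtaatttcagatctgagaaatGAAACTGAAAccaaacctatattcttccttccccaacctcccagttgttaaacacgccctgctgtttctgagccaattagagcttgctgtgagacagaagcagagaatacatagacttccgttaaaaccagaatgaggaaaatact
IFIT3: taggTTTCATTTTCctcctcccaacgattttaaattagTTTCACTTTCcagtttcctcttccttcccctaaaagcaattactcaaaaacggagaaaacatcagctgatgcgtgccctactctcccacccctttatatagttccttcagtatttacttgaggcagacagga
IFIH1: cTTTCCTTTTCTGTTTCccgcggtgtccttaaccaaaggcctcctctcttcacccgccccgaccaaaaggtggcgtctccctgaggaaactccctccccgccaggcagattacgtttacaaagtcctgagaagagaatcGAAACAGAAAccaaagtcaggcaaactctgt
BST2: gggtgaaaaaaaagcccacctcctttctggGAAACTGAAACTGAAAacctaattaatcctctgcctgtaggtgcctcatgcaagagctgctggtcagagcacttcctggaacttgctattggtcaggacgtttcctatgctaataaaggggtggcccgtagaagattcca
DTX3L: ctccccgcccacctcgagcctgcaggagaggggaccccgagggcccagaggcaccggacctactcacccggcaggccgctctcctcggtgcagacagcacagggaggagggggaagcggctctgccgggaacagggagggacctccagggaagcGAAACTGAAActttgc

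The knocked-down gene was checked first. HNRNPM (ENSG00000099783) was at 11.5 and 12.95 RPKM in knockdown libraries, against 88.6 and 102 RPKM in control libraries, where RPKM are reads divided by transcript length and by a number of reads. It was 7.80-fold lower (log2 fold change −2.91 ± 0.17 SE; limma, adjusted p = 1.48e-59, or 0.000146 once libraries were scaled by the median ratio). The RPKM values summed to 163078 and 180958 in knockdown libraries and to 162466 and 187293 in control libraries. The steps between low values pointed to 1 divisor shared by both libraries of a group, 29.5 M reads for knockdown and 41.7 M reads for control. The deposited values may therefore not be scaled to the depth of each library, and the standard errors and p-values of unscaled RPKM may hold differences in depth: their median standard error was 0.175, against 0.0544 after median-ratio scaling. With these divisors the values corresponded to sums of 16.4 M and 18.2 M reads in knockdown libraries and 22.9 M and 26.4 M reads in control libraries. Markers of MDA-MB-231 cells, among them VIM, CD44 and AXL, were at 15.0 to 760 RPKM for 8 of 8 genes. Of 10 leukocyte markers, 8 were in the table and 6 were below 1 RPKM in every library, with CLEC4C listed at 0 in all 4 and PTPRC at no more than 0.0158 RPKM. CD14, a receptor for bacterial lipopolysaccharide, was at 5.27 and 7.13 RPKM in knockdown libraries against 1.28 and 1.44 RPKM in control libraries, and CD68, a lysosomal protein, at 7.69 and 8.75 against 26.1 and 29.1 RPKM. The summed leukocyte markers were at 13.0 and 15.92 RPKM in knockdown and 27.35 and 30.55 RPKM in control libraries. The fibroblast markers (5 of 5 in the table) summed to 30.27 and 33.47 RPKM in knockdown and 10.54 and 12.59 RPKM in control libraries, mostly from COL1A1, at 27.2 and 30.3 RPKM in knockdown against 10.3 and 12.2 RPKM in control libraries. LUM was at 1.37 and 1.36 RPKM in knockdown against 0.0238 and 0.0397 RPKM in control libraries, PDGFRB at 1.42 and 1.58 against 0.240 and 0.295 RPKM, and COL3A1 at 0.218 and 0.247 against 0.0070 and 0.0175 RPKM, while DCN was at no more than 0.0125 RPKM. The part of these markers in the results below was not tested. The 3 endothelial markers in the table stayed below 1 RPKM in every library. The 6 luminal markers summed to 14.66 and 16.5 RPKM in knockdown and to 9.127 and 10.05 RPKM in control libraries, with PGR listed at 0 in all 4 and ESR1 at no more than 0.0322 RPKM. KRT18 was at 10.5 and 11.8 RPKM in knockdown against 5.49 and 6.54 RPKM in control libraries, and CDH1 at 0.717 and 0.990 against 0.0774 and 0.0629 RPKM, and their part in the results was not tested either.

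The antiviral effectors IFIT1, IFIT2, IFIT3, OASL, SAMD9 and SAMD9L were among the genes that rose after hnRNPM knockdown, while none of the 4 listed transcription factors passed the test and OAS3, TRIM25, IFITM1 and IFI44 fell. Of the 42 genes, 34 had a mean RPKM of at least 1 over the 4 libraries and were tested, and 8 were below that filter. Among these 34, 10 rose (29.4%), where 14.7% of all 13627 genes tested rose, and 4 fell (11.8%), where 21.8% of all genes tested fell (limma on log2(RPKM + 0.5), Benjamini-Hochberg adjusted p under 0.05 over all genes). The median log2 fold change of the 34 genes was 0.10, against −0.07 over all genes tested. The genes were chosen with earlier results of these data known, so these values describe the list and are no test of it. Groups without overlap were found for 15 of the 34 genes toward a rise and for 9 toward a fall. Over all genes tested these shares were 28.0% and 38.8%, so a lack of overlap between 2 and 2 libraries was common. With median-ratio scaling of the libraries, 17 of the 34 rose, against 31.1% of all genes, and 8 fell, against 30.0% of all genes, with medians of 0.17 and 0.00. Without the filter the adjustment ran over 31636 genes, of which 1.63% passed in either direction, and the calls of IFIT1, IFIT2 and OASL remained (adjusted p = 0.0445, 0.0497 and 0.0491) while the other 11 were lost, with adjusted p from 0.054 for SAMD9L to 0.16 for ISG15. The 34 genes are those that passed the filter, and 1 of them, PARP9, passed it through its level in knockdown cells, with a mean of 0.838 RPKM in control cells. In RNA from bulk culture, fewer cells that express a gene and less of its RNA per cell cannot be told apart.

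**Figure D1:**
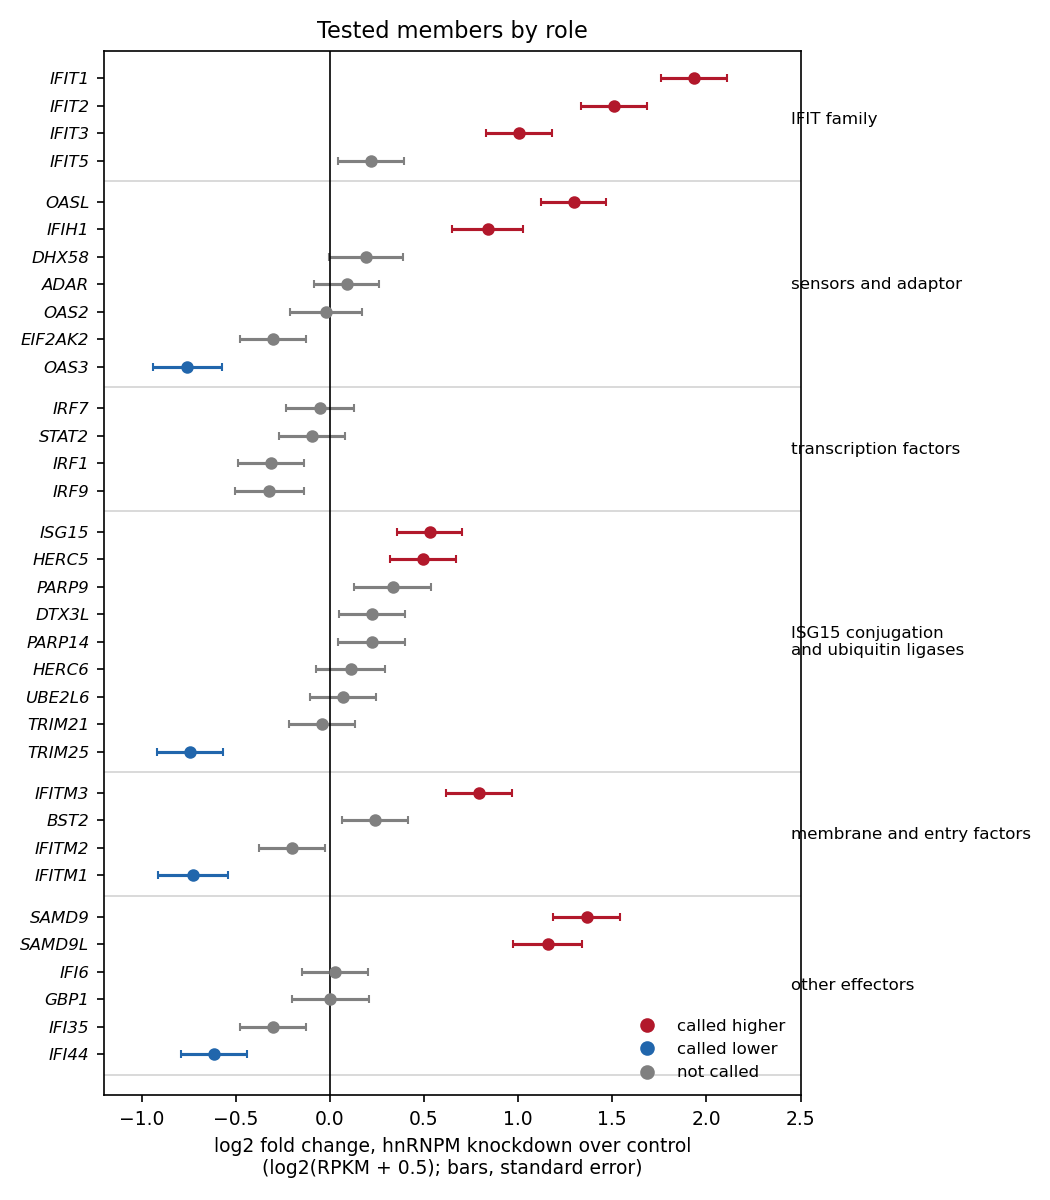
Log2 fold change (hnRNPM knockdown over control, on log2(RPKM + 0.5)) of the 34 tested genes, grouped by role; points are estimates, bars standard errors, red points rose, blue points fell and grey points did not pass. IFIT1, at 1.94, and OAS3, at −0.76, mark the ends of the range.

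IFIT1, IFIT2 and IFIT3 rose, and their relative IFIT5 did not pass. IFIT proteins bind viral RNA that lacks the cap modifications of the host, and IFIT1, IFIT2 and IFIT3 form a complex on it. IFIT1 (ENSG00000185745) was at 11.3 and 12.2 RPKM in knockdown libraries, against 2.48 and 2.92 RPKM in control libraries. Both knockdown libraries lay far above both control libraries, at means of 11.7 ± 0.674 and 2.70 ± 0.312 RPKM (SD, n = 2 each), 4.34-fold higher, with a log2 fold change of 1.94 ± 0.18 (SE; limma, adjusted p = 4.10e-26). IFIT2 (ENSG00000119922), which promotes cell death when overexpressed, was at 15.3 and 17.6 RPKM in knockdown libraries, against 5.11 and 5.83 RPKM in control libraries. Its groups did not overlap either, with a log2 fold change of 1.51 ± 0.18 (SE; limma, adjusted p = 5.01e-16). IFIT3 (ENSG00000119917), which stabilises IFIT1 on RNA, was at 35.0 and 39.1 RPKM in knockdown libraries, against 17.0 and 19.5 RPKM in control libraries. It had the highest level of the family per length in both groups, and rose 2.03-fold (log2 fold change 1.00 ± 0.17 SE; limma, adjusted p = 1.28e-07). IFIT5, which binds tRNA and single-stranded RNA by itself, was at 7.16 and 7.34 RPKM in knockdown and 5.95 and 6.39 RPKM in control libraries (log2 fold change 0.22, adjusted p = 0.349). With median-ratio scaling IFIT5 passed too, at an adjusted p of 0.0189, with no overlap between its groups. The IFIT1, IFIT2 and IFIT3 calls held with each library left out in turn.

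The proportions within the IFIT family differed between the groups. The ratio of IFIT1 to IFIT5, taken within each library and so free of its depth, was 1.57 and 1.66 in knockdown libraries against 0.417 and 0.457 in control libraries, a 3.70-fold difference. IFIT1 was thus above IFIT5 per length in both knockdown libraries and below it in both control libraries. IFIT1 also gained on IFIT3, at 0.322 and 0.312 of its level in knockdown libraries and at 0.146 and 0.1496 in control libraries. The IFIT3 to IFIT5 ratio was 4.89 and 5.33 in knockdown libraries and 2.85 and 3.06 in control libraries. These pairs, and those below, were picked after the values were seen, so no test is given. All 4 genes lie in 1 cluster on chromosome 10, and RefSeq places no protein-coding gene between IFIT1 and IFIT5 or between IFIT2 and IFIT3.

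Among the sensors and the enzymes that act on foreign RNA, 7 genes were tested, of which IFIH1 and OASL rose, OAS3 fell and 4 did not pass. Over all genes tested, 14.7% rose and 21.8% fell. IFIH1 (ENSG00000115267) encodes MDA5, the helicase that senses long RNA duplexes. It was at 2.35 and 2.46 RPKM in knockdown libraries, against 1.15 and 1.11 RPKM in control libraries, with both knockdown libraries higher. The rise was 2.14-fold (log2 fold change 0.84 ± 0.19 SE; limma, adjusted p = 9.05e-05). OASL (ENSG00000135114), an OAS relative without synthetase activity that enhances RIG-I signalling, was at 12.0 and 13.2 RPKM in knockdown libraries, against 4.59 and 5.08 RPKM in control libraries. Its groups were far apart, and it rose 2.60-fold (log2 fold change 1.29 ± 0.18 SE; limma, adjusted p = 4.94e-12). The IFIH1 and OASL calls held with each library left out in turn.

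OAS3 went the other way from OASL. OAS enzymes make 2′-5′-linked oligoadenylates on binding RNA duplexes, and these activate the nuclease RNase L. OAS3 (ENSG00000111331) was at 1.61 and 1.82 RPKM in knockdown libraries, against 2.95 and 3.55 RPKM in control libraries. Both knockdown libraries were lower, by 1.90-fold in the means (log2 fold change −0.76 ± 0.18 SE; limma, adjusted p = 0.000234), and the adjusted p was 0.0573 without knockdown replicate 1. Within libraries, OASL was at 7.48 and 7.23 times the level of OAS3 per length in knockdown libraries and at 1.55 and 1.43 times in control libraries. OAS2, another synthetase, was at 1.52 and 1.64 RPKM in knockdown and 1.44 and 1.79 RPKM in control libraries, so its groups overlapped (log2 fold change −0.02, adjusted p = 0.948). OAS1 was below the filter, at 0.535 and 0.509 RPKM in knockdown libraries against 0.189 RPKM in each control library. Without a filter it had a log2 fold change of 0.57 and an adjusted p of 0.0555. OAS1, OAS3 and OAS2 are neighbours on chromosome 12 with no protein-coding gene between them, and OAS3, in the middle, fell.

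The remaining sensors did not pass. DHX58 encodes LGP2, a helicase without signalling domain that tunes MDA5, and was at 1.22 and 1.71 RPKM in knockdown and 1.12 and 1.30 RPKM in control libraries, with overlap (log2 fold change 0.19, adjusted p = 0.474). EIF2AK2 encodes PKR, the kinase that stops translation on binding RNA duplexes. It was at 4.67 and 5.21 RPKM in knockdown and 5.66 and 6.76 RPKM in control libraries (log2 fold change −0.30, adjusted p = 0.173), and passed as lower with median-ratio scaling (adjusted p = 0.011). ADAR, which edits adenosine to inosine in such duplexes and so keeps self RNA from being sensed, was at 27.0 and 30.0 RPKM in knockdown and 25.4 and 28.2 RPKM in control libraries. Its groups overlapped (log2 fold change 0.09, adjusted p = 0.729), and after median-ratio scaling it passed as higher (adjusted p = 0.0081). TLR3, below the filter, was at 0.718 and 0.709 RPKM in knockdown libraries against 1.04 and 1.26 RPKM in control libraries, with no overlap (log2 fold change −0.44 without a filter, adjusted p = 0.145).

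**Figure D2:**
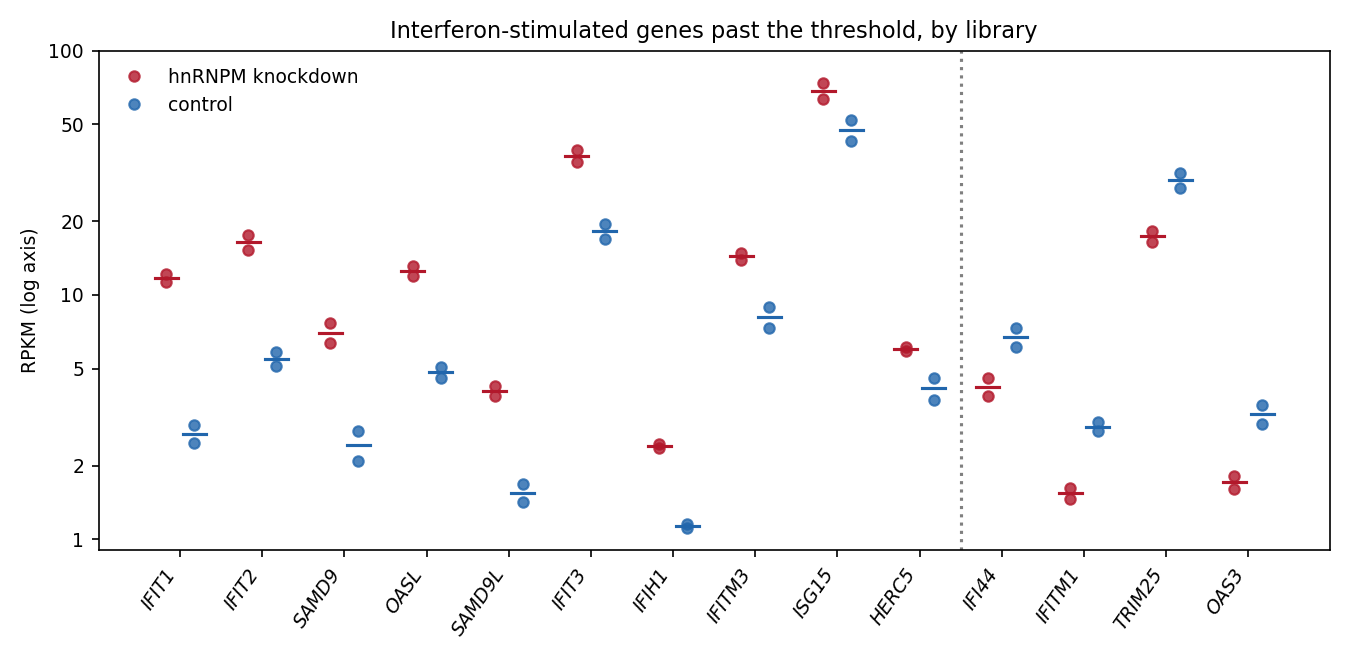
RPKM (log axis) of the 14 genes that passed the test, one point per library and a line at each group mean, knockdown in red and control in blue; genes right of the dotted line fell. No gene shows overlap between its groups, and IFIT1 has the widest gap, at 11.3 and 12.2 RPKM in knockdown against 2.48 and 2.92 RPKM in control libraries. Of all genes tested, 28.0% lay higher and 38.8% lower in knockdown without overlap.

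None of the 4 transcription factors of the interferon response passed the test. Of all genes tested, 14.7% rose and 21.8% fell, so most genes did not pass either. STAT2 and IRF9, the ISGF3 subunits on the list, were at 4.67 and 4.78 RPKM and at 2.03 and 2.19 RPKM in knockdown libraries, against 4.82 and 5.37 RPKM and 2.67 and 2.84 RPKM in control libraries. Both knockdown libraries were below both control libraries for each gene (log2 fold change −0.10, adjusted p = 0.706 for STAT2, and −0.32, adjusted p = 0.159 for IRF9). IRF1, which acts early and is itself induced by interferon gamma, was at 5.09 and 5.63 RPKM in knockdown and 6.29 and 7.26 RPKM in control libraries (log2 fold change −0.31, adjusted p = 0.156). IRF7, which amplifies type I interferon production, was at 2.75 and 3.08 RPKM in knockdown and 2.74 and 3.36 RPKM in control libraries, and its groups overlapped (log2 fold change −0.05, adjusted p = 0.846). With median-ratio scaling IRF1 and IRF9 passed as lower (adjusted p = 0.00603 and 0.0284). In the gene models of GENCODE 29, IRF9 shares 48.4% of its exon bases with AL136295.5 on the same strand and IRF1 22.0% with C5orf56 on the opposite strand. Whether counting used the strand was not given in the sources used here. Reads on the shared bases of IRF9 cannot be told apart from those of its partner. For the shared bases of IRF1, this depends on whether the strand was used.

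In the ISG15 conjugation system and the related ubiquitin and ADP-ribose ligases, 9 genes were tested, of which 2 rose, 1 fell and 6 did not pass. The shares over all genes tested were 14.7% and 21.8% for rises and falls. ISG15, a ubiquitin-like protein joined to other proteins, had the highest level of all 42 genes per length in both groups. It (ENSG00000187608) was at 63.5 and 73.5 RPKM in knockdown libraries, against 42.6 and 52.3 RPKM in control libraries. HERC5 (ENSG00000138646), the ligase that attaches ISG15, was at 5.92 and 6.11 RPKM in knockdown libraries, against 3.72 and 4.56 RPKM in control libraries. Both genes were higher in both knockdown libraries, by 1.44-fold for ISG15 (log2 fold change 0.53 ± 0.17 SE; limma, adjusted p = 0.0081) and 1.45-fold for HERC5 (0.49 ± 0.18, adjusted p = 0.0166). Neither held when any 1 of the 4 libraries was left out, with adjusted p from 0.0706 to 0.421 for ISG15 and from 0.052 to 0.275 for HERC5. UBE2L6, the conjugating enzyme for ISG15, was at 9.59 and 10.3 RPKM in knockdown and 9.06 and 9.83 RPKM in control libraries, with overlap (log2 fold change 0.07, adjusted p = 0.789, or 0.045 and so higher under median-ratio scaling). ISG15 stood at 6.62 and 7.13 times UBE2L6 in knockdown libraries and at 4.70 and 5.32 times in control libraries.

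TRIM25 was the ligase that fell. TRIM25 (ENSG00000121060) adds ubiquitin in the RIG-I pathway and can also conjugate ISG15. It was at 16.4 and 18.3 RPKM in knockdown libraries, against 27.4 and 31.5 RPKM in control libraries. Both knockdown libraries were lower, by 1.69-fold in the means (log2 fold change −0.74 ± 0.17 SE; limma, adjusted p = 0.000152). It did not pass without control replicate 2 (adjusted p = 0.071), nor with either knockdown library left out (0.151 without replicate 1 and 0.0548 without replicate 2). TRIM25 was second only to ISG15 of the 42 genes in control libraries, at a mean of 29.4 RPKM, and in knockdown libraries IFIT3 and ADAR stood above it as well.

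The other ligases did not pass. HERC6, the neighbour of HERC5 on chromosome 4 and a relative that is not the main ISG15 ligase in humans, was at 2.40 and 2.36 RPKM in knockdown and 1.96 and 2.40 RPKM in control libraries (log2 fold change 0.11, adjusted p = 0.681). The HERC5 to HERC6 ratio was 2.47 and 2.58 in knockdown libraries and 1.90 in each control library. PARP9 and its partner DTX3L, which form a complex that ubiquitylates histones, and PARP14, a mono-ADP-ribosyltransferase, had log2 fold changes of 0.33, 0.22 and 0.22 (adjusted p = 0.197, 0.334 and 0.34). PARP9 was at 1.08 and 1.30 RPKM in knockdown and 0.778 and 0.898 RPKM in control libraries, DTX3L at 7.13 and 7.56 against 5.70 and 6.79 RPKM, and PARP14 at 4.22 and 4.70 against 3.49 and 4.03 RPKM. All 3 were higher in both knockdown libraries than in both control libraries, and each passed once libraries were scaled by the median ratio (adjusted p = 0.0198, 0.00637 and 0.00541). TRIM21, a cytosolic antibody receptor and ubiquitin ligase, was at 7.98 and 8.95 RPKM in knockdown and 7.85 and 9.70 RPKM in control libraries (log2 fold change −0.04, adjusted p = 0.874).

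The membrane proteins split, with IFITM3 higher and IFITM1 lower. IFITM proteins block the fusion of viruses with host membranes, IFITM3 and IFITM2 mainly in endosomes and IFITM1 mainly at the cell surface. IFITM3 (ENSG00000142089) was at 14.0 and 14.8 RPKM in knockdown libraries, against 7.36 and 8.91 RPKM in control libraries. It rose 1.77-fold with no overlap between the groups (log2 fold change 0.79 ± 0.18 SE; limma, adjusted p = 5.27e-05). IFITM1 (ENSG00000185885) was at 1.62 and 1.47 RPKM in knockdown libraries, against 2.76 and 3.01 RPKM in control libraries. It was lower in both knockdown libraries, by 1.87-fold in the means (log2 fold change −0.73 ± 0.19 SE; limma, adjusted p = 0.000537). Without knockdown replicate 2 the adjusted p was 0.0683 for IFITM3 and 0.0576 for IFITM1. IFITM2 was at 9.93 and 11.7 RPKM in knockdown and 11.6 and 13.3 RPKM in control libraries, with overlap (log2 fold change −0.20, adjusted p = 0.392). The IFITM3 to IFITM1 ratio was 8.59 and 10.1 in knockdown libraries and 2.66 and 2.96 in control libraries.

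These 3 IFITM values carry a limit of counting. The genes are neighbours on chromosome 11 and close in sequence, and in GENCODE 29 IFITM1 shares 351 exon bases (32.5% of its exons) with IFITM2. How reads with several matches were counted was not given in the sources used here, and the division of reads among the 3 genes is uncertain. BST2, or tetherin, which holds budding virus particles at the cell surface, was at 11.1 and 12.4 RPKM in knockdown and 9.41 and 10.4 RPKM in control libraries, both knockdown libraries above both control libraries (log2 fold change 0.24, adjusted p = 0.288). With median-ratio scaling BST2 passed as higher (adjusted p = 0.00346).

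**Figure D3:**
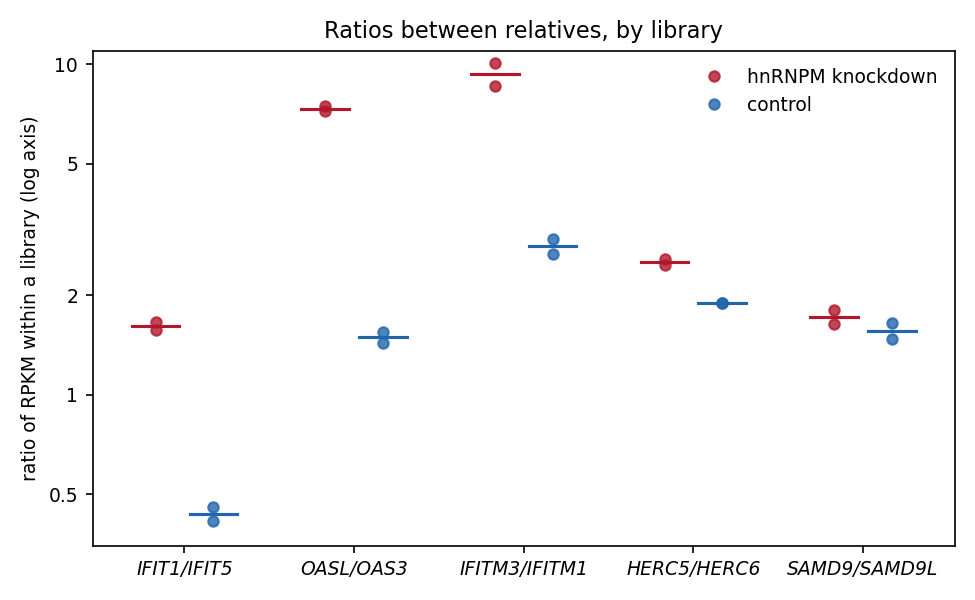
Ratio of the RPKM values of related genes within each library (log axis), with points for libraries and lines for group means, knockdown in red left of control in blue. The OASL to OAS3 ratio lies at 7.48 and 7.23 in knockdown against 1.55 and 1.43 in control libraries, and only the SAMD9 to SAMD9L ratio overlaps between groups among the 5 pairs drawn.

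Among the other effectors, both SAMD9 genes rose together. SAMD9 and SAMD9L restrict poxviruses and limit cell growth, and lie side by side on chromosome 7. SAMD9 (ENSG00000205413) was at 6.35 and 7.68 RPKM in knockdown libraries, against 2.09 and 2.77 RPKM in control libraries. SAMD9L (ENSG00000177409) was at 3.87 and 4.24 RPKM in knockdown libraries, against 1.42 and 1.68 RPKM in control libraries. Both knockdown libraries were above both control libraries for each, by 2.89-fold for SAMD9 (log2 fold change 1.36 ± 0.18 SE; limma, adjusted p = 3.86e-13) and 2.62-fold for SAMD9L (1.16 ± 0.18, adjusted p = 4.05e-09), and both calls held with each library left out. Their ratio stayed close, at 1.64 and 1.81 in knockdown and 1.48 and 1.65 in control libraries, where the groups overlapped.

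IFI44 fell. IFI44 (ENSG00000137965), a microtubule-associated protein that slows proliferation, was at 3.85 and 4.59 RPKM in knockdown libraries, against 6.14 and 7.31 RPKM in control libraries. Both knockdown libraries were lower, by 1.59-fold in the means (log2 fold change −0.61 ± 0.18 SE; limma, adjusted p = 0.00222). Leaving out control replicate 2 gave an adjusted p of 0.115, and leaving out a knockdown library gave 0.262 (replicate 1) and 0.0628 (replicate 2). Its neighbour and relative IFI44L was near 0, at 0.0831 and 0.122 RPKM in knockdown and 0.0346 and 0.0416 RPKM in control libraries (log2 fold change 0.16 without a filter, adjusted p = 0.144). IFI6, a mitochondrial and ER protein, was at 5.30 and 5.77 RPKM in knockdown and 4.94 and 5.93 RPKM in control libraries, and GBP1, a GTPase induced mainly by interferon gamma, at 0.851 and 1.16 against 0.866 and 1.14 RPKM. The groups of both genes overlapped (log2 fold change 0.03, adjusted p = 0.922 for IFI6, and 0.00, adjusted p = 0.994 for GBP1). IFI35, a partner of NMI, was at 6.51 and 6.92 RPKM in knockdown and 7.51 and 9.40 RPKM in control libraries, with both knockdown libraries lower (log2 fold change −0.30, adjusted p = 0.166, or 0.0296 under median-ratio scaling).

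The remaining effectors were below the filter. RSAD2 encodes viperin, which makes a chain-terminating nucleotide, and was at 0.2999 and 0.391 RPKM in knockdown libraries against 0.0691 and 0.0790 RPKM in control libraries. These values corresponded to an estimated 43 and 56 reads in knockdown libraries and 14 and 16 reads in control libraries, with no overlap (log2 fold change 0.56 without a filter, adjusted p = 0.0627). CMPK2, its neighbour on chromosome 2, was close to silent, at 0.0236 and 0.0157 RPKM in knockdown and 0.0557 and 0.0167 RPKM in control libraries. These were an estimated 3 and 2 reads in knockdown and 10 and 3 reads in control libraries, and the difference was not detectable at this depth. GBP2 was at 1.04 and 1.26 RPKM in knockdown and 0.749 and 0.901 RPKM in control libraries, with no overlap (log2 fold change 0.31 without a filter, adjusted p = 0.277). XAF1, a proapoptotic protein, was at 0.733 and 0.804 RPKM in knockdown and 0.769 and 0.895 RPKM in control libraries, and IFI27 at 0.130 and 0.0973 against 0.172 and 0.195 RPKM (adjusted p = 0.714 and 0.181 without a filter).

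The ISRE core was found among genes that rose, among genes that fell and among genes that did not pass. Of the 10 genes that rose, 8 had a promoter window and 7 of these held the core, SAMD9L being the exception. Of the 4 genes that fell, 3 held it, TRIM25 being the exception. Among genes that did not pass, 8 of 16 windows held it, and among genes below the filter 3 of 7. With 1 mismatch allowed, it lay in all 8 windows of genes that rose and all 4 of genes that fell. It then lay in 10 of the 16 windows of genes that did not pass and 6 of the 7 below the filter. Differences between these small sets of windows were not tested. The match nearest the start began at position −103 in IFIT1, −122 in IFIT3, −21 in IFIH1 and −136 in SAMD9, and at −6 in IFITM1 and −12 in OAS3, which both fell. IFIT5 held 3 matches, the nearest at −4, and BST2 held overlapping matches, visible as the run of capitals in its stretch above. The GAS core, TTC and GAA with any 3 bases between them, lay in 9 of the 35 windows (25.7%), against 7.9% of all windows, and in 0 of the 8 windows of genes that rose. A match is only a run of letters in this window, and a gene without one may carry an element elsewhere. IFIT2, OASL, DHX58, OAS2, IFITM2, IRF7 and GBP2 had no window in the table.

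**Figure D4:**
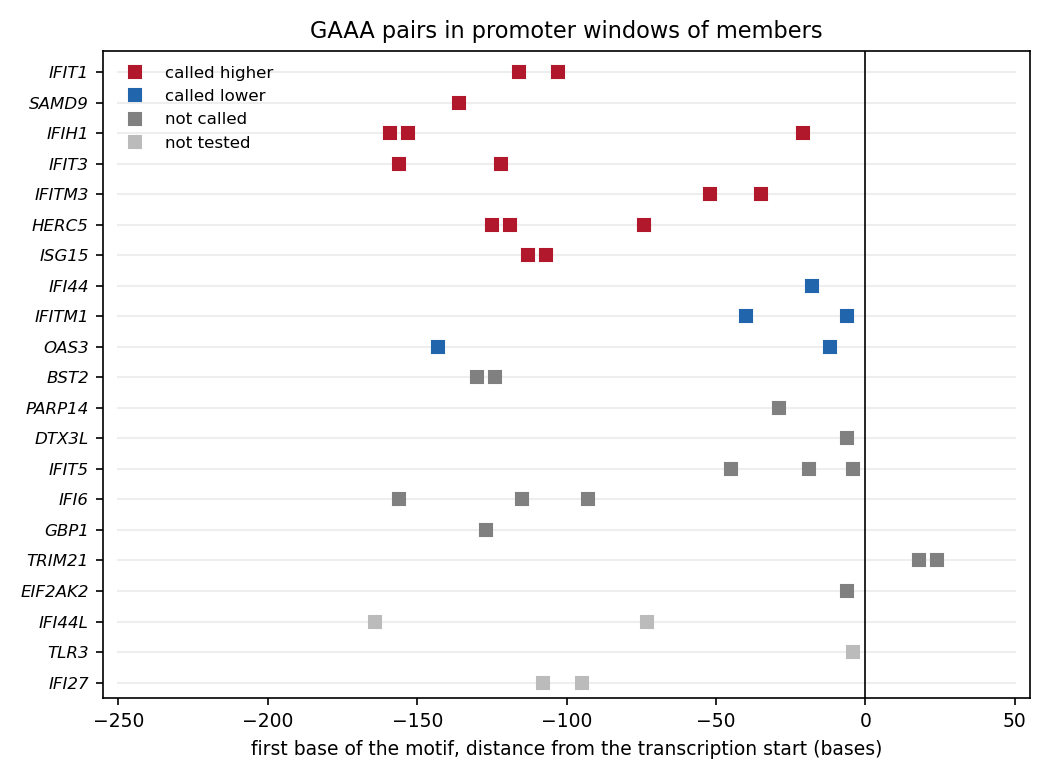
Position of the first base of each ISRE core (GAAA, 2 bases, GAAA, either strand) relative to the transcription start, in bases, for the 21 genes whose promoter window holds one; red marks genes that rose, blue genes that fell, dark grey genes that did not pass and light grey genes below the filter. Matches of genes that rose lie from far upstream to near the start, with the nearest match of SAMD9 at −136 and that of IFIH1 at −21, and those of IFITM1 (−6) and OAS3 (−12), which fell, lie close to the start.

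Around these genes, 165 other gene symbols of the interferon system in 6 lists were described with the same fit. The table held 130 of them, 94 were tested, and 16 rose and 16 fell, where 14.7% and 21.8% of all genes tested did, at a median log2 fold change of −0.05 against −0.07 over all genes. Of 13 ligands, 7 were in the table and IL6 alone was tested and did not pass, at 2.79 and 2.81 RPKM in knockdown against 2.68 and 3.14 RPKM in control libraries. The type I interferon genes IFNB1, IFNA1 and IFNE, the interferon gamma gene IFNG, CXCL9 and CCL5 were not found in the table and were not analysed here. IFNL2, IFNL3 and IFNK were listed at 0 in every library, and IFNL1, a type III interferon, was at 0.118 RPKM in each knockdown library and listed at 0 in both control libraries. The chemokine CXCL10, a target of interferon signalling, was below the filter at 0.517 and 0.431 RPKM in knockdown libraries against 0.0611 and 0.0407 RPKM in control libraries, and CXCL11 was at 0.159 and 0.124 against 0.0751 and 0.0250 RPKM. IFNL1 and CXCL11 were below the filter as well. Reads were not estimated for IFNL1, CXCL10 and CXCL11, and values this low can rest on a few reads. Their changes were not tested in the main fit. Without a filter (limma), the log2 fold change was 0.31 for IFNL1 (adjusted p = 0.0493), 0.82 for CXCL10 (0.0525) and 0.22 for CXCL11 (0.162). Of these, only IFNL1 passed there, on values near the floor. Of 9 receptors and kinases, IFNAR1, IFNAR2, IFNGR2 and IL10RB were not found in the table. Of the 9, 3 were tested and IFNGR1, the ligand-binding chain of the interferon gamma receptor, rose. It was at 15.3 and 17.7 RPKM in knockdown libraries against 7.05 and 8.19 RPKM in control libraries (log2 fold change 1.07 ± 0.18 SE; limma, adjusted p = 1.98e-08). The kinases JAK1 and TYK2 did not pass (log2 fold change −0.10 and 0.08, adjusted p = 0.704 and 0.749), and TYK2 passed as higher under median-ratio scaling (adjusted p = 0.0201).

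Of 35 genes of sensing and induction, 24 were tested, 4 rose and 6 fell, where 14.7% and 21.8% of all genes tested did. The rises with the smallest p were STING1, the adaptor of DNA sensing (log2 fold change 0.54, adjusted p = 0.00744), TBK1, the kinase that activates IRF3 (0.49, 0.0171), and CHUK, the IKK alpha kinase (0.48, 0.0215). None of these 3 held when any 1 library was left out, with adjusted p of up to 0.301, 0.321 and 0.398. TRIM65, a ubiquitin ligase that activates MDA5, was at 3.59 and 3.58 RPKM in knockdown libraries, against 8.51 and 9.65 RPKM in control libraries. It fell (log2 fold change −1.23, adjusted p = 6.63e-11), as did TREX1, a nuclease that removes cytosolic DNA (−0.96, 9.47e-07), and NFKB1 (−0.78, 6.16e-05, and 0.091 without knockdown replicate 1). IFIH1 and TRIM65, sensor and activating ligase of 1 pathway, thus moved in opposite directions.

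Of 17 negative regulators, 12 were tested, 2 rose and 3 fell, where 14.7% and 21.8% of all genes tested did. ATF3, a stress-induced repressor, rose (log2 fold change 1.01, adjusted p = 9.03e-07), and PIAS4, a SUMO ligase, rose by 0.45 (adjusted p = 0.0334, and up to 0.484 with a library left out, passing in none of the 4). The phosphatase PTPN11 and the SUMO ligase PIAS1 fell (log2 fold change −0.66 and −0.57, adjusted p = 0.00097 and 0.00602), and neither passed without control replicate 2 or without either knockdown library, with adjusted p of up to 0.22 and 0.187. OTUD5, a deubiquitinase of TRAF3, fell as well (−0.45, adjusted p = 0.0302, and up to 0.41 with a library left out, passing in none of the 4). Of 15 proteins that bind, process or edit RNA duplexes, 11 were tested, 1 rose and 0 fell, where 14.7% and 21.8% of all genes tested did. The gene that rose was DICER1 (log2 fold change 0.71, adjusted p = 0.000321). The DICER1 call was lost without control replicate 1 or knockdown replicate 2, with an adjusted p of up to 0.12.

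Of 76 symbols listed as other interferon-stimulated genes, 43 were tested, 8 rose and 7 fell, where 14.7% and 21.8% of all genes tested did. Their median log2 fold change was −0.16, against −0.07 over all genes. PARP13 and ZC3HAV1 on this list name the same gene, as do C19orf66 and SHFL. IFITM10, an IFITM relative, was at 4.30 and 4.96 RPKM in knockdown libraries, against 0.968 and 1.16 RPKM in control libraries, and rose (log2 fold change 1.71 ± 0.18 SE; limma, adjusted p = 8.89e-19). Whether IFITM10 or the other listed genes respond to interferon in these cells was not tested. EPSTI1 was at 1.57 and 1.73 RPKM in knockdown libraries, against 0.645 and 0.654 RPKM in control libraries (log2 fold change 0.90, adjusted p = 7.24e-05), and passed the filter only through its level in knockdown cells. TRAFD1, a regulator of TRAF signalling, rose by 0.65 on the log2 scale (adjusted p = 0.00105), and the TRAFD1 call was lost with control replicate 1 or either knockdown library left out (adjusted p of up to 0.203). MLKL, the executioner of necroptosis, was at 1.69 and 1.85 RPKM in knockdown libraries, against 5.51 and 5.62 RPKM in control libraries, and fell (log2 fold change −1.42 ± 0.18 SE; limma, adjusted p = 7.87e-14). CD274, which encodes the checkpoint ligand PD-L1, was at 0.780 and 0.993 RPKM in knockdown libraries, against 2.59 and 2.83 RPKM in control libraries (−1.21 ± 0.19, adjusted p = 5.25e-09), and passed the filter only through its level in control cells. SLFN5, a Schlafen family protein, was at 1.02 and 1.11 RPKM in knockdown libraries, against 2.37 and 2.84 RPKM in control libraries, and fell (−0.99 ± 0.19, adjusted p = 2.53e-06).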

How the data were processed

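The authors deposited 1 table of RPKM values for 36525 Ensembl genes, with 1 column for each of the 4 libraries. Per the submitters' processing notes, Bowtie 0.12.7 and build hg19 were used for alignment. The program that counted reads, and whether it used the strand or shared out reads with several matches, was not given in the sources used here. IDs were named from a symbol table (32172), from GENCODE 29 (136) or not at all (4217), and chromosomes 20, 21 and 22 hold no gene of the table and were not analysed here. The genes described, their role groups and the pathway and marker lists were chosen with earlier results of these data known.

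RPKM values are not counts, so limma 3.58.1 (R 4.3.3) was run on log2(RPKM + 0.5), after a filter that kept the 13627 genes averaging 1 RPKM or more. The model held the group alone, the empirical Bayes step used a trend of variance on level, and p-values were adjusted over all genes tested (Benjamini-Hochberg, threshold 0.05). This scale understates the changes of low genes. Beyond this trend limma found no difference in variance among genes, so each gene was tested against the shared variance at its level and not against its own replicates. No exact permutation test was run, since the 3 ways to split 4 libraries into pairs allow no two-sided p below 0.333. The fit was tested on simulated data with known changes. The simulation had independent noise, few changed genes and no difference in depth between groups, so it checked the code and not the calls made here. Ratios of levels are ratios of mean RPKM, and errors of means are SD.

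Depth was estimated from the steps between low values with GENCODE 29 exon lengths: at shared totals of 29.5 M reads for knockdown and 41.7 M reads for control libraries, 81.9% of 8159 and 82.3% of 8548 low values were whole within 0.1 read. The estimates describe depth, cover counting error only and entered no test. Median-ratio size factors were 0.9294 and 1.027 for knockdown and 0.9641 and 1.11 for control libraries.

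Genes named are all 42 listed genes in the table, HNRNPM, and per pathway list up to 3 rising and 3 falling genes with the smallest p. JAK1, TYK2 and the ligands were named after their values were seen. Alternatives were other pseudocounts (0.1 and 1), no filter or a mean RPKM of at least 5, median-ratio scaling, a replicate block, no variance trend, a minimum fold of 1.5, and leaving out each library. Promoter sequences are from RefSeq (GRCh38.p14), and overlaps between genes from GENCODE 29, both of another build than the table.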

Additional observations from a re-analysis of the deposited data

How the results depend on the processing

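The listed genes showed 10 rises and 4 falls. The 14 genes that passed kept their direction under every alternative that tested them (5 of them, IFIH1, OAS3, IFITM1, SAMD9 and SAMD9L, were removed by the stricter filter of 5 RPKM), and the median log2 fold change of the 34 tested genes stayed between 0.0135 and 0.197. Both counts were the same with pseudocounts of 0.1 and 1 and without the variance trend, and a minimum fold of 1.5 left 8 and 4. Without a filter, 31636 genes shared the adjustment and 3 listed genes rose (IFIT1, IFIT2 and OASL) and 0 fell, against 262 and 255 of all genes and 2 and 2 of the pathway genes. At a mean RPKM of at least 5, 20 listed genes were tested, 7 rose and 2 fell. The counts were 1047 and 1321 over all genes and 9 and 6 among the pathway genes. Fewer genes were tested there, and their number is not given, so these counts cannot be compared as shares. With median-ratio scaling the median standard error over all genes was 0.0544, against 0.175 without it, and 17 listed genes rose and 8 fell, against 4235 and 4083 of all genes and 38 and 30 of the pathway genes.

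With the replicate number as a replicate block, 13 listed genes rose and 9 fell, with 3109 and 4318 of all genes and 26 and 30 of the pathway genes. The labels do not say that equal numbers mark a shared culture, and the correlation of the deviations of same-numbered libraries was 0.0307 over 13627 genes, so the number was taken as a name only. The cause of the difference was not tested.

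With each library left out in turn, 7 to 8 listed genes rose and 1 to 4 fell, with 759 to 1158 rises and 1057 to 2007 falls over all genes, and 4 to 6 rises and 5 to 12 falls among pathway genes; the fits rested on 3 libraries, and the lone library was assumed to vary like the other group. Only genes that passed in the main fit could lose a call, and some of them did in each of these fits. The 8 genes below the filter were left out by their RPKM.

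Some genes near 0 that did not pass changed sign. Under median-ratio scaling the log2 fold change was 0.0438 for OAS2, 0.0168 for IRF7 and 0.0339 for TRIM21. With a library left out in turn it lay between −0.138 and 0.0985 for OAS2, −0.18 and 0.0717 for IRF7, −0.188 and 0.10 for TRIM21, −0.0933 and 0.149 for IFI6, −0.00981 and 0.229 for HERC6, and −0.147 and 0.152 for GBP1. The cause was not tested.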
